A study of Mus musculus with 9 samples.

Results

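Ccr7, Klf2, S1pr1, Ccr9, Cxcr4, Itga4 and Itgb7 were followed, 7 of the 55011 genes in the count table, taken by symbol as genes that steer T cells between blood, lymphoid organs and tissues. RNA was sequenced from CD8 T cells, which kill infected and cancerous cells, taken from spleens of wild-type mice. All cells were naive at the start, and all were activated in culture for 6 h by antibodies to CD3 and CD28 fixed to the plate at 4 µg/mL. Control cells were left untreated, and no vehicle is named for them. The other cells were given D-2HG or L-2HG, at 20 mM each, together with the stimulus, and each of the 3 groups had 3 libraries. The compounds are the 2 enantiomers of the same acid, 2-hydroxyglutarate, and mutant isocitrate dehydrogenases make the D form in tumours. The series title places the study around impairment of CD8 T cell function by D-2HG. No label says whether the libraries of a group came from separate mice or cultures, and the spread that p-values rest on may be technical.

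Naive T cells circulate through lymph nodes. The receptor CCR7 lets them enter from the blood, and the sphingosine 1-phosphate receptor S1PR1 lets them leave along a gradient of its lipid ligand. The transcription factor KLF2 drives S1pr1, and FOXO1 drives Klf2. Stimulation through the T cell receptor lowers KLF2 and raises CD69, a membrane protein that removes S1PR1 from the surface, so that activated cells stay in the node. Gut homing uses CCR9, the receptor for the chemokine CCL25 of the small intestine, and the integrin made of the chains α4 (Itga4) and β7 (Itgb7), which binds the vascular addressin MAdCAM-1. The α4 chain also pairs with β1 (Itgb1), a dimer that binds VCAM-1. CXCR4, the receptor for CXCL12, holds cells in bone marrow. Retinoic acid made by dendritic cells of the gut is known to induce CCR9 and α4β7 in T cells.

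Gene counts totalled between 562627 in L-2HG replicate 2 and 5731885 in control replicate 3. The share of counts in Gm10800 and Gm10801, predicted genes made of satellite repeat, was 0.910% to 5.35% in controls, 3.79% to 17.0% with D-2HG and 6.71% to 24.4% with L-2HG. It was highest in L-2HG replicate 2 and, among controls, in control replicate 2. Mitochondrial genes took 2.23% to 3.06% of counts in controls, 0.992% to 1.87% with D-2HG and 1.19% to 1.83% with L-2HG, so controls lay above all libraries with a compound. Summed markers of CD8 T cells reached 3664 to 5953 CPM (counts scaled to a common library total, by TMM) in controls, 3130 to 3605 with D-2HG and 2971 to 4150 with L-2HG. Of these 7 markers 4 passed the test described below with D-2HG (Cd3e, Cd3g, Cd8b1 and Trac), and 1 with L-2HG (Trac). All of these calls were lower than control. Of all tested genes 22.3% with D-2HG and 17.7% with L-2HG were called in either direction. A set of 1692 sensory receptor genes, not typical of T cells, summed to 207 to 825 CPM of the library total without TMM in controls, 745 to 1122 with D-2HG and 1250.2 to 3251 with L-2HG. Markers of B cells, which also carry Ccr7, S1pr1 and Itgb7, summed to 189 to 335 CPM in controls, 148 to 166 with D-2HG and 156 to 219 with L-2HG. Of these 10 markers 5 were abundant enough to test, and Ighm changed with both compounds. Summed endothelial markers, S1pr1 being abundant in that cell type, reached 20.6 to 54.8, 23.7 to 30.8 and 43.4 to 63.7 CPM in the same order, and the 1 testable marker of 8, Pecam1, is also made by T cells and made up 17.5 to 46.5 CPM in controls. Markers of CD4 T, NK, myeloid, dendritic, neutrophil, erythroid and stromal cells summed to at most 39.7 CPM in any library. Among these only Zbtb46, 1 of 2 testable dendritic markers, passed, with L-2HG. It lay at 4.74 to 6.88 CPM in controls and 11.3 to 14.7 with L-2HG. In such bulk RNA, fewer cells of a type and less RNA per cell cannot be told apart, and the part of these shares and markers in the results below was not tested.

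Of the 7 genes 6 had enough counts to test, and Cxcr4 did not. With D-2HG 1 of them passed the threshold, Ccr9, which rose. A gene passed at an adjusted p under 0.05 in edgeR's quasi-likelihood test over 10235 genes. The same comparison called 22.3% of all tested genes, 11.8% higher and 10.5% lower, so 1 of 6 is near the background. With L-2HG Ccr9 and Itga4 rose, 2 of 6 against 17.7% of all genes, 9.41% higher and 8.30% lower. Between the mirror-image forms none of the 6 passed, against 0.303% of all genes. In that last comparison 2 of the 6, S1pr1 and Itga4, had an unadjusted edgeR p under 0.05, beside 713 of the 10235 genes. Limma-voom called Itga4 there, among 158 of the 10235 genes, while DESeq2 called none of the 6. The median log2 fold change of the 6 was -0.44 with D-2HG and 0.22 with L-2HG, beside 0.04 and 0.05 over all genes. Both compounds were compared with the same controls, so their values are given side by side.

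**Figure D1:**
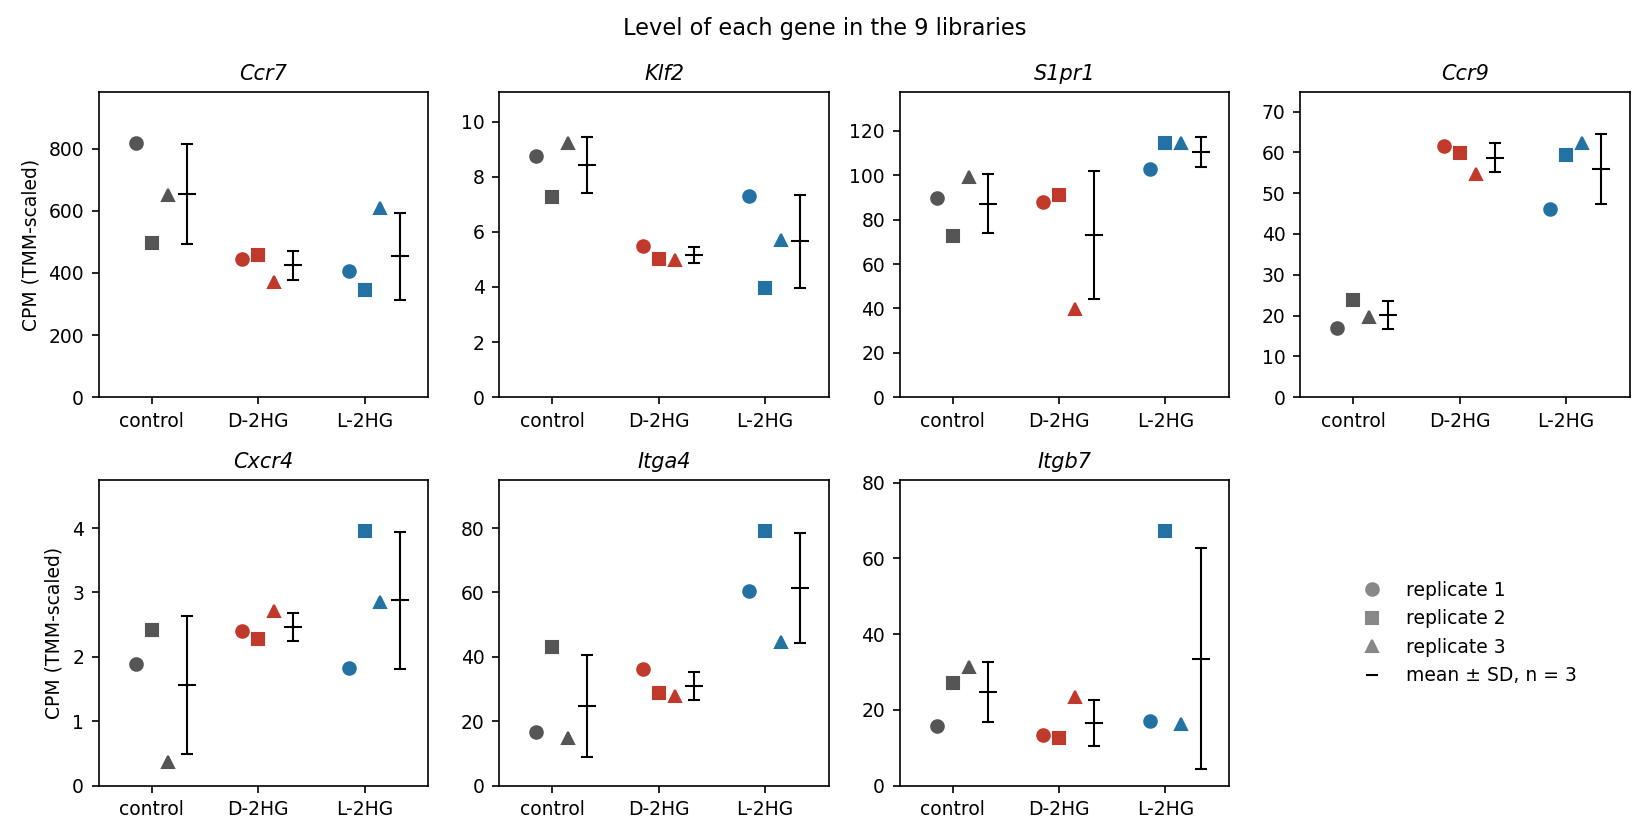
Level of each of the 7 genes in CPM (vertical axes, each from 0) in the 9 libraries, with the group on the horizontal axis. Marker shape gives the replicate number and the bar the mean ± SD of 3 libraries. Ccr9 lay at 17.1 to 23.7 CPM in controls and at 46.1 or above in all 6 libraries with a compound, whereas the 1 high value of Itgb7 is L-2HG replicate 2.

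**Figure D2:**
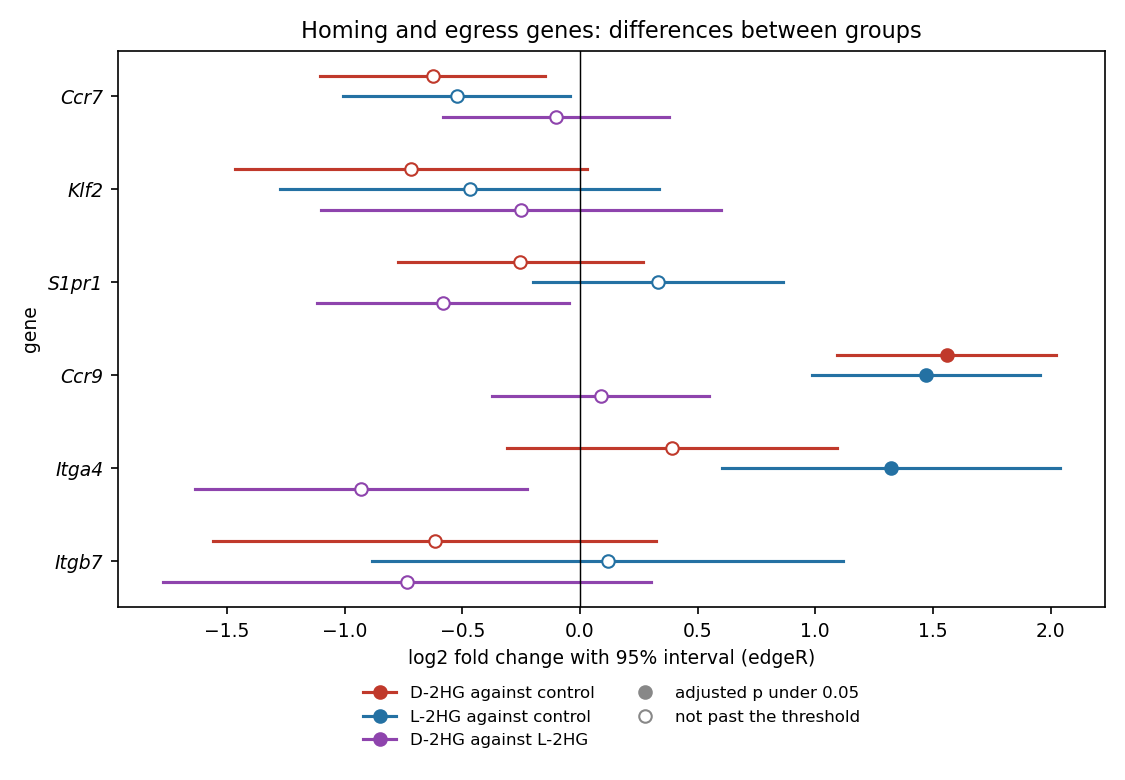
Log2 fold change (horizontal axis) of the 6 tested genes (vertical axis) in the 3 comparisons, with 95% intervals from the edgeR fit. Filled points passed the threshold, which are Ccr9 with both compounds and Itga4 with L-2HG.

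Ccr9, on chr9:123678439-123784330 of build mm10 (plus strand, ENSMUSG00000029530), was read at 17.1, 23.7 and 19.7 CPM in control replicates 1, 2 and 3. It stood at 61.6, 59.8 and 54.6 CPM with D-2HG and at 46.1, 59.2 and 62.3 CPM with L-2HG. The control range lay below every library that had received a compound, and the ranges of the D and L forms overlapped. Ccr9 rose 2.94-fold with D-2HG (95% interval 2.13 to 4.07; log2 fold change 1.56, SE 0.22; edgeR adjusted p = 0.000240). It rose 2.77-fold with L-2HG (1.98 to 3.87; log2 1.47, SE 0.23; edgeR adjusted p = 0.00193). The difference between the forms was 0.09 on the log2 scale with a 95% interval from -0.37 to 0.55, so a difference of up to about 1.46-fold in favour of D-2HG is within the interval. The interval covers equality, and at 30 to 262 counts per library with a compound it does not show that the forms act alike. The call with D-2HG was made under all 23 alternative settings, with log2 fold changes from 1.31 to 1.93. The call with L-2HG was lost in 1 of 23, where the log2 satellite share entered the model as a covariate (log2 1.33, adjusted p = 0.115).

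Annotated exons of Ccr9 share 2223 bases with Slc6a20a, Gm17200 and AC165425.1, and whether strand was used in counting is not given in the sources used here. Slc6a20a had at most 2 counts and Gm17200 at most 3 in any library, against 30 to 262 for Ccr9 with a compound. A background was estimated per base of exon from 1692 of 1781 sensory receptor genes, those with the highest rates being left out. It is called DNA background here, but that these reads come from DNA was assumed and not tested. Such a background would supply between 1.99% and 9.35% of the Ccr9 counts. With that background subtracted the log2 fold changes of Ccr9 were 1.64 with D-2HG and 1.56 with L-2HG.

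Promoter sequence is shown for Ccr9 and Itga4, the members that rose, and for Itgb7, the partner chain of Itga4 that did not pass. Each window runs from 250 bases before to 50 bases after the gene start in RefSeq (GRCm38.p6), which held windows for 5 of the 7 genes. Capitals mark CACCC or its reverse complement GGGTG, the core letters that KLF factors bind. The windows are chr9:123766961-123767260 on the plus strand for Ccr9, chr2:79255176-79255475 on the plus strand for Itga4 and chr15:102231886-102232185 on the minus strand for Itgb7. The Ccr9 window lies inside the gene span given above, because the RefSeq start differs from the GENCODE start of that span.
Ccr9: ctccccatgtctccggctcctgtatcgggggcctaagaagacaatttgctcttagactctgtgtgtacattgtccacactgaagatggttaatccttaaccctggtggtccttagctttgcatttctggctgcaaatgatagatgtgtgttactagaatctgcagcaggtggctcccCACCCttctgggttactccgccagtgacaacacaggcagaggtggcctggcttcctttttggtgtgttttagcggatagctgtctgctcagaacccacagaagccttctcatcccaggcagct
Itga4: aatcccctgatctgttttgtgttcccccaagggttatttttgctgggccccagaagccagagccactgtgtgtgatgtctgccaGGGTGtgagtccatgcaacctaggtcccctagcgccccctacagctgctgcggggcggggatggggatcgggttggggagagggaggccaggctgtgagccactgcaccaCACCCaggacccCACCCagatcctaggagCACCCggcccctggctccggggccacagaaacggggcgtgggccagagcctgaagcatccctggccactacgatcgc
Itgb7: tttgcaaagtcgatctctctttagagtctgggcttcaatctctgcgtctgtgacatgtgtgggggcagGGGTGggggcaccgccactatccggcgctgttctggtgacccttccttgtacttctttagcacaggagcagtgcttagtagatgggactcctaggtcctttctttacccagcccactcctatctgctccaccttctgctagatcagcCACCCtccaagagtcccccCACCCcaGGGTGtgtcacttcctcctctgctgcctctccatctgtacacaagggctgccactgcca
Ccr9 held 1 such match and Itga4 and Itgb7 held 4 each, none of them overlapping another, while Klf2 and Cxcr4 held 1 each. Of 27025 mouse promoters of the same length 56.7% held at least 1 match and 3.03% held 4 or more. The FOXO letters TGTTTAC (or GTAAACA), present in 3.55% of promoters, and the retinoid receptor hexamer AGGTCA (or TGACCT), present in 16.0%, were not in any of the 5 windows. These letters were chosen after the data were known, and a match is not a binding site.

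Itga4, the α4 integrin chain (chr2:79255426-79333123, plus strand, ENSMUSG00000027009), was read at 16.8, 43.1 and 14.7 CPM in control replicates 1, 2 and 3. It stood at 36.1, 28.8 and 28.0 CPM with D-2HG and at 60.3, 79.0 and 44.7 CPM with L-2HG. All L-2HG libraries lay above all controls, but control replicate 2 lay 1.42 log2 units above the mean of the other 2 controls and above every D-2HG library. Itga4 rose 2.50-fold with L-2HG (95% interval 1.52 to 4.11; log2 1.32, SE 0.34; edgeR adjusted p = 0.0201). With D-2HG the value was 0.39 (-0.31 to 1.09; edgeR adjusted p = 0.395). L-2HG libraries lay above all D-2HG libraries, with a log2 difference of -0.93 for D-2HG against L-2HG (-1.63 to -0.23) that did not pass after adjustment over all genes (edgeR adjusted p = 0.522).

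The Itga4 call with L-2HG rested on the libraries and settings of the fit, and was lost under 7 of 23 alternatives. Among these were the fit of only the 2 groups compared and counts thinned to the smallest library. The call was also lost without control replicate 1, control replicate 3, L-2HG replicate 1 or L-2HG replicate 2. Log2 fold changes were then from 1.01 to 1.28, with edgeR adjusted p between 0.0513 and 0.106. Without control replicate 2 the L-2HG value was 1.87 (adjusted p = 0.000106), and the D-2HG value then passed at 0.96 (adjusted p = 0.00619). With the satellite share as a covariate the values were 0.54 for L-2HG and -0.20 for D-2HG, neither past the threshold. Exons of Itga4 share 1124 bases with Cerkl on the other strand, which had 0 to 9 counts per library, and the DNA background would supply 3.64% to 17.7% of its counts. With that background subtracted the L-2HG value was 1.36 (edgeR adjusted p = 0.0414).

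Itgb7, the β7 chain (chr15:102215995-102231944, minus strand, ENSMUSG00000001281), was read at 15.9, 27.1 and 31.3 CPM in controls, at 13.4, 12.6 and 23.5 CPM with D-2HG and at 17.2, 67.1 and 16.2 CPM with L-2HG. The groups overlapped, and the highest value came from the 34 counts of L-2HG replicate 2, the shallowest library. Its log2 fold change was -0.62 with D-2HG (-1.56 to 0.33; edgeR adjusted p = 0.312) and 0.12 with L-2HG (-0.88 to 1.12; adjusted p = 0.878). Without L-2HG replicate 2 the latter was -0.58. Its sign was reversed under 8 of 23 alternatives, among them that fit, the fit without control replicate 1 and limma-voom with all libraries. D-2HG against L-2HG gave -0.74 (-1.77 to 0.30; edgeR adjusted p = 0.828), and -0.044 without L-2HG replicate 2. The D-2HG value passed in limma-voom (-0.98, adjusted p = 0.00297) and in edgeR at a mean count of at least 1 (-0.87, adjusted p = 0.0349). In the limma-voom fit Itga4 also passed with D-2HG, at 1.00 (adjusted p = 0.000468), so the values of the 2 chains had opposite signs there. With D-2HG that fit called 5615 of all 10235 tested genes, and the edgeR fit at a mean count of at least 1 called 2529 of 23084.

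Cxcr4, the CXCL12 receptor (chr1:128588199-128592293, minus strand, ENSMUSG00000045382), had 8, 5 and 2 counts in controls, 7, 10 and 6 after D-2HG and 5, 2 and 6 after L-2HG. These correspond to 0.362 to 2.42, 2.28 to 2.71 and 1.83 to 3.95 CPM, and the groups overlapped. DNA background alone would supply 6.66% to 36.0% of its counts. Two-sided exact permutation p-values on CPM were 0.3 with D-2HG, 0.3 with L-2HG and 0.7 between the forms, where 3 against 3 libraries cannot go below 0.1. A difference was not detectable at this depth, since the 95% intervals of the log2 fold change in a fit with no count filter ran from -0.84 to 2.15 with D-2HG and from -1.02 to 2.23 with L-2HG.

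Ccr7, the lymph node entry receptor (chr11:99144196-99155077, minus strand, ENSMUSG00000037944), was the most abundant of the 7 at 818, 496 and 650.4 CPM in controls. It stood at 445, 458 and 371 CPM with D-2HG and at 405, 344 and 610.3 CPM with L-2HG. All D-2HG libraries lay below all controls, whereas L-2HG replicate 3 lay among the controls. The log2 fold change was -0.62 with D-2HG, or 0.649-fold (95% interval 0.466 to 0.903; edgeR adjusted p = 0.0543). With L-2HG it was -0.52, or 0.695-fold (0.498 to 0.970; edgeR adjusted p = 0.107), and neither passed the threshold. The forms differed by -0.10 (-0.58 to 0.38; edgeR adjusted p = 0.967).

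The D-2HG value of Ccr7 lay close to the threshold and passed it under 9 of 23 alternatives. It was -0.81 (edgeR adjusted p = 0.00514) without control replicate 2, the lowest control. It also passed without L-2HG replicate 2 (-0.63, edgeR adjusted p = 0.0303) or L-2HG replicate 3 (-0.61, edgeR adjusted p = 0.0328). It passed as well with DESeq2 (-0.70, adjusted p = 0.0295) and with limma-voom (-0.60, adjusted p = 0.00171). The limma-voom fit called 5615 of all 10235 tested genes with D-2HG. The L-2HG value passed under 7 of 23, among them the fit without control replicate 2 (-0.72, adjusted p = 0.0120) and the fit without L-2HG replicate 3 (-0.84, adjusted p = 0.0186). With the satellite share as a covariate the values were -0.20 and -0.01. Control replicate 2 lay 0.56 log2 units below the mean of the other controls in Ccr7. Its satellite share was the highest of the controls, and the part of that share in the Ccr7 values was not tested.

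Klf2, the transcription factor above S1pr1 (chr8:72319033-72321656, plus strand, ENSMUSG00000055148), was read at 8.76, 7.27 and 9.23 CPM in controls, from 37, 15 and 51 counts. It stood at 5.50, 5.02 and 4.97 CPM with D-2HG and at 7.31, 3.95 and 5.71 CPM with L-2HG, where replicate 2 had 2 counts. All D-2HG libraries lay below all controls, and the L-2HG range overlapped the control range. The log2 fold change was -0.72 with D-2HG (-1.47 to 0.03; edgeR adjusted p = 0.145), -0.47 with L-2HG (-1.27 to 0.34; adjusted p = 0.385) and -0.25 between the forms (-1.10 to 0.60; adjusted p = 0.957). Limma-voom called Klf2 with D-2HG (-0.77, adjusted p = 0.0159), in a fit that called 5615 of all 10235 tested genes.

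S1pr1, the egress receptor (chr3:115710433-115715072, minus strand, ENSMUSG00000045092), was read at 90.0, 72.7 and 99.2 CPM in controls. It stood at 88.1, 91.1 and 39.7 CPM with D-2HG and at 103, 115 and 115 CPM with L-2HG. D-2HG replicate 3 was the lowest library and the other two D-2HG libraries lay within the control range, whereas all L-2HG libraries lay above all controls. The log2 fold change was -0.25 with D-2HG (-0.77 to 0.27; edgeR adjusted p = 0.465) and 0.33 with L-2HG (-0.20 to 0.86; adjusted p = 0.352). Without D-2HG replicate 3 the D-2HG value was 0.02. Every D-2HG library lay below every L-2HG library. The log2 difference between the forms was -0.58 (-1.12 to -0.05), which did not pass after adjustment over all genes (edgeR adjusted p = 0.680), and it was -0.28 without D-2HG replicate 3.

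Counting genes whose group ranges did not overlap, D-2HG libraries lay above controls for 1 of the 6 tested genes (Ccr9) and below them for 2 (Ccr7 and Klf2), where 20.7% and 19.3% of all tested genes did. L-2HG libraries lay above controls for 3 of the 6 (Ccr9, Itga4 and S1pr1), against 16.4% of all genes. D-2HG lay below L-2HG for 2 (S1pr1 and Itga4), against 8.13%.

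**Figure D3:**
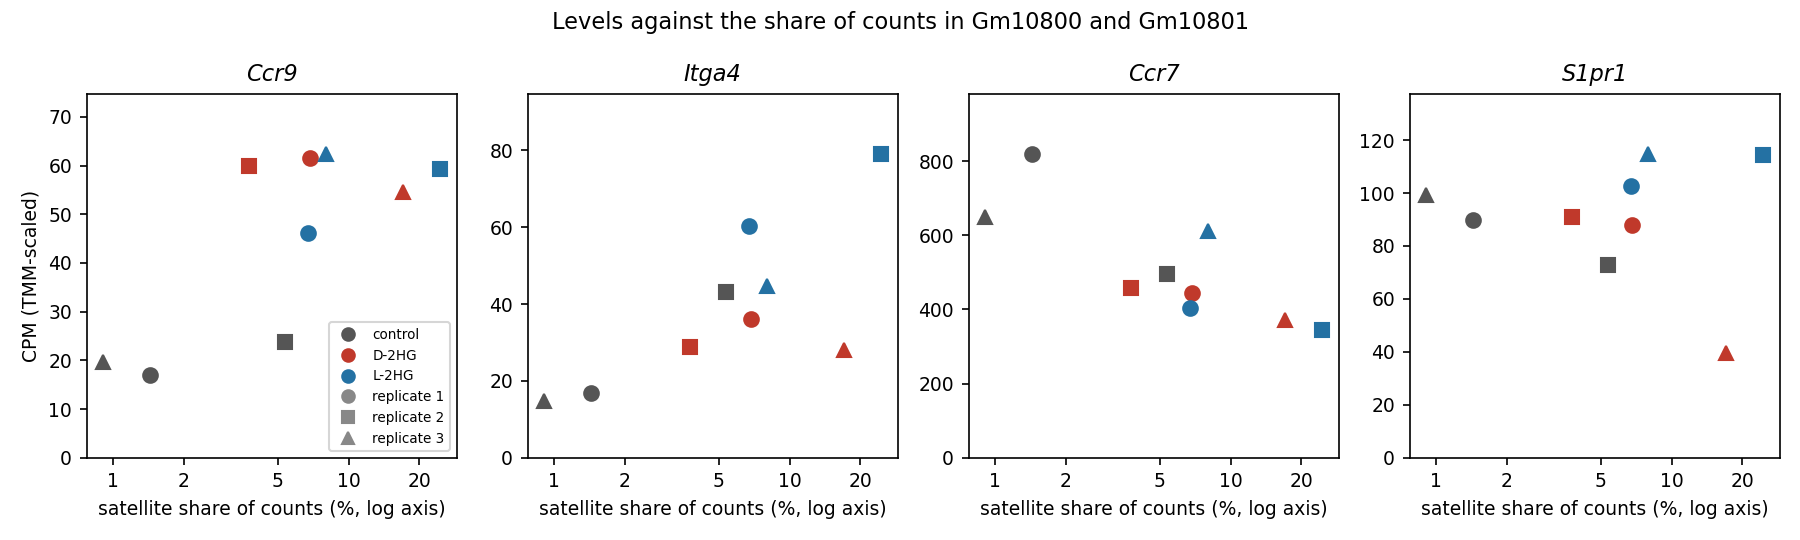
Level in CPM (vertical axes) of Ccr9, Itga4, Ccr7 and S1pr1 in each library against the percent of its counts in the satellite genes Gm10800 and Gm10801 (horizontal axes, log scale). Control replicate 2 has a satellite share of 5.35%, above D-2HG replicate 2 at 3.79% and below all other libraries with a compound. Its Ccr9 level of 23.7 CPM lies below all libraries with a compound and 0.36 log2 units above the mean of the other controls. Its Itga4 level of 43.1 CPM lies among the libraries with a compound. The part of the satellite share in these levels was not tested.

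Per kilobase of annotated exon, so that levels can be set between genes, the order in controls was Ccr7 (331 CPM per kb), S1pr1 (28.7), Itgb7 (8.94), Klf2 (4.56), Ccr9 (1.97), Itga4 (1.78) and Cxcr4 (0.863). Neighbours in that order did not overlap over the 3 libraries except Ccr9 with Itga4, and Itga4 with Cxcr4 at the low end. With D-2HG the level of Ccr9 was 5.72 CPM per kb and it stood above Klf2 (2.80) and next to Itgb7 (5.95), whose range it overlapped. With L-2HG Itgb7, Ccr9, Itga4 and Klf2 followed each other at 12.1, 5.45, 4.39 and 3.06 CPM per kb, each overlapping the next. Ccr9 and Itga4 have long annotated exon unions of 10260 and 13978 bases, against 5197 and 9767 in their principal transcripts. On the latter length Ccr9 stood at 11.3 CPM per kb with D-2HG, above Itgb7 at 6.14. In controls Klf2 (3.94 to 5.00) then overlapped Ccr9 (3.28 to 4.57), and Itga4 no longer overlapped Cxcr4. With L-2HG Itga4 then overlapped neither Ccr9 nor Klf2, so these separations depend on the length used. Of the CPM summed over the 7 genes Ccr7 made up 79.0% in controls, 69.5% with D-2HG and 61.9% with L-2HG, and Ccr9 made up 2.56%, 9.65% and 7.76%.

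Ratios of 2 genes within a library do not depend on the scaling between libraries, and 7 were compared in 3 comparisons. The log2 ratio of Ccr9 to Ccr7 counts was -5.58, -4.37 and -5.04 in controls, -2.85, -2.94 and -2.76 after D-2HG and -3.13, -2.52 and -3.29 after L-2HG. It was higher in all libraries with a compound, by 2.15 with D-2HG and 2.02 with L-2HG. The two-sided exact permutation p was 0.1 for each, the smallest possible with 3 against 3, and 0.263 after adjustment over the 21 tests, so no ratio can pass in this design.

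The ratio of Klf2 to Foxo1, its upstream factor, had log2 values of -1.46, -1.79 and -1.48 in controls, -1.83, -2.38 and -2.22 after D-2HG and -2.17, -2.20 and -2.41 after L-2HG. Both compounds gave lower ratios than any control, by -0.57 and -0.69, while Foxo1 itself lay at 24.4 to 25.9 CPM in controls, 20.0 to 26.7 with D-2HG and 21.7 to 33.6 with L-2HG. S1pr1 to Klf2 was 3.34, 3.28 and 3.41 in controls and 3.78, 4.55 and 4.27 with L-2HG, above every control by a mean of 0.85. With D-2HG the same ratio was 3.96, 4.15 and 2.94 and overlapped the controls.

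S1pr1 to Cd69, the receptor and the protein that removes it, had log2 ratios of -4.24, -3.80 and -3.77 in controls, -3.57, -3.57 and -5.00 after D-2HG and -3.39, -3.21 and -3.27 after L-2HG. It was higher with L-2HG than in controls by 0.64 and lower with D-2HG than with L-2HG by -0.75, both without overlap. D-2HG replicate 3 was the lowest library, and without it the difference between the forms was -0.28. Cd69 itself lay at 1015 to 1701 CPM in controls, 1045 to 1281 with D-2HG and 1070.0 to 1112 with L-2HG. Itgb1 to Itgb7, the partners that α4 can choose between, was higher with D-2HG by 0.96 without overlap, and Itga4 to Itgb7 and Cxcr4 to Ccr7 overlapped in all 3 comparisons. Each non-overlapping ratio here also had an exact permutation p of 0.1.

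**Figure D4:**
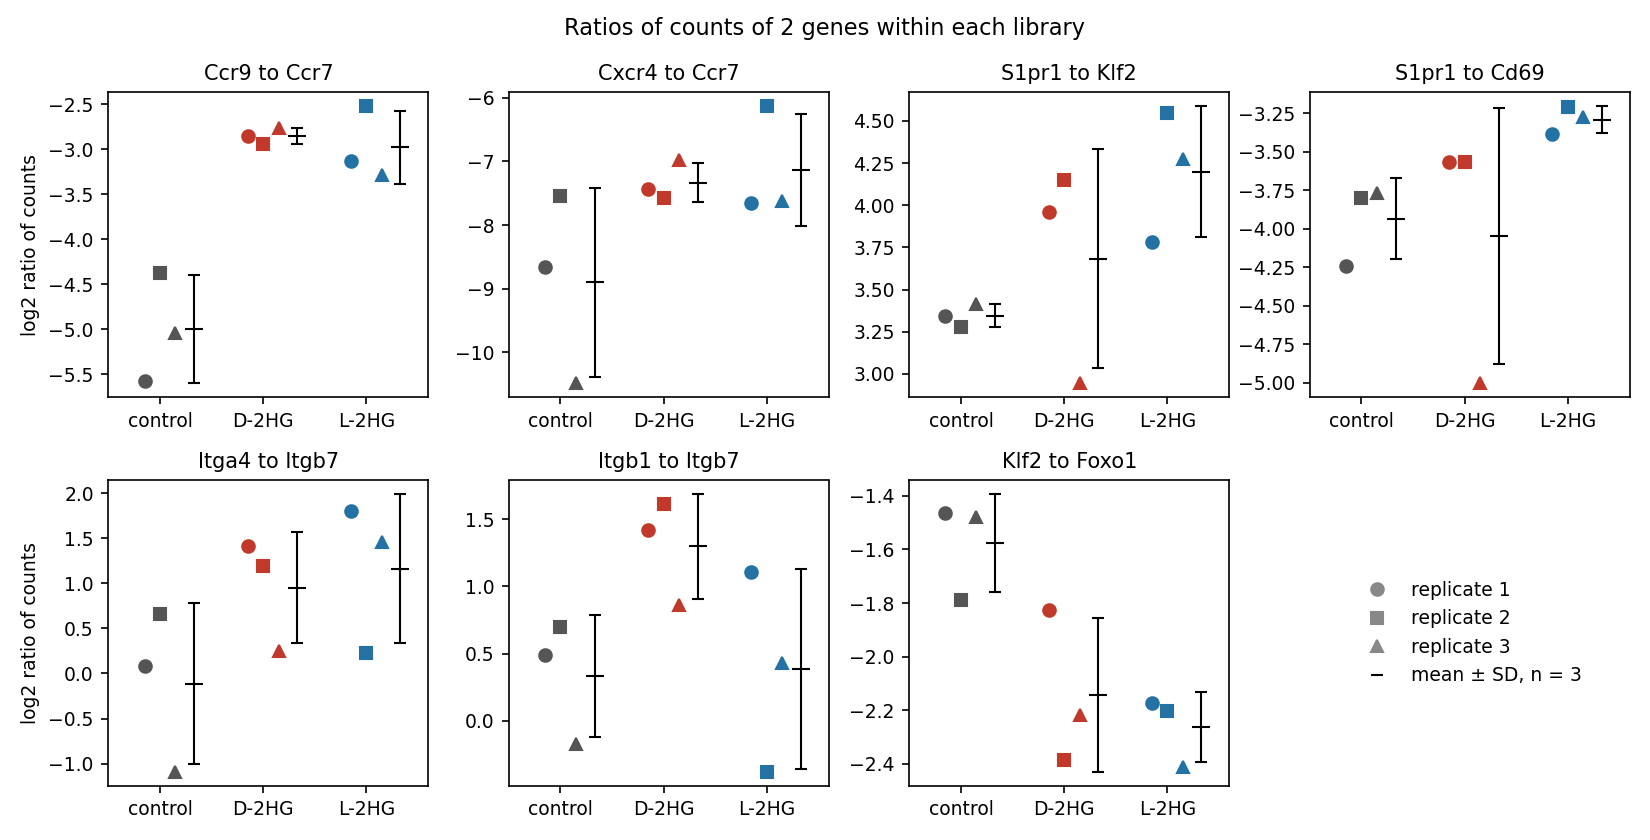
Log2 ratio of the counts of 2 genes in the same library (vertical axes, 0.5 count added to each gene) by group (horizontal axes), with mean ± SD of 3 libraries. Ccr9 to Ccr7 lies between -5.58 and -4.37 in controls and between -3.29 and -2.52 in the 6 libraries with a compound.

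Other genes of the homing pathways were read from lists that hold none of the 7. Among 20 further chemokine receptor genes 6 were abundant enough to test. Ccr8, a receptor of regulatory and skin-homing T cells, lay at 15.0 to 31.7 CPM in controls, 3.10 to 6.39 with D-2HG and 3.95 to 12.8 with L-2HG. It fell by 2.34 on the log2 scale with D-2HG (SE 0.36; edgeR adjusted p = 0.000634) and by 1.14 with L-2HG (SE 0.36; adjusted p = 0.0371). Cxcr3, a receptor of inflamed-tissue homing, fell with L-2HG (log2 -0.93, adjusted p = 0.0348) and had -0.72 with D-2HG (adjusted p = 0.0519). None of the other chemokine receptors rose, so the tested list counted 0 higher and 1 lower with D-2HG and 0 higher and 2 lower with L-2HG, with medians of -0.24 and -0.41. These are 16.7% and 33.3% of the 6, beside 22.3% and 17.7% of all tested genes called in either direction.

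Of 8 tested selectin ligand genes and genes of their synthesis 3 fell with D-2HG and 1 with L-2HG, and none rose. The counts are 37.5% and 12.5% of the 8, where 10.5% and 8.30% of all tested genes fell. Their median log2 fold changes were -0.67 and -0.26. Cd44, the hyaluronan receptor, fell with both compounds (log2 -0.85 and -0.92). Selplg and Spn, sialomucins of the T cell surface, fell with D-2HG (-0.67 each) and had -0.16 and -0.04 with L-2HG.

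Of 6 tested genes of sphingosine 1-phosphate receptors and handling, 1 rose and 1 fell with D-2HG and none passed with L-2HG in edgeR, 33.3% and 0% of the list beside 22.3% and 17.7% of all genes, with medians of 0.23 and 0.37. S1pr4, a further sphingosine 1-phosphate receptor, lay at 70.8 to 93.3 CPM in controls, 32.3 to 49.8 with D-2HG and 57.3 to 71.4 with L-2HG and fell with D-2HG (log2 -1.03; edgeR adjusted p = 0.00618). Sgpl1, the lyase that degrades the ligand, rose with D-2HG (1.02, adjusted p = 0.0263). Of 17 tested integrin subunits and activators 2 rose with D-2HG and 3 with L-2HG and none fell, with medians of 0.17 and 0.19. These are 11.8% and 17.6% of the 17, where 11.8% and 9.41% of all tested genes rose. Itga5 rose with both (1.29 and 1.51), as did Tln1, the integrin activator talin (0.59 and 0.81), and Itgal, the αL chain, rose with L-2HG (0.72).

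The G protein and migration signalling list had 2 of 23 tested genes higher and 2 lower with D-2HG, and 4 higher and 1 lower with L-2HG, with medians of -0.11 and 0.08. The called share was 17.4% and 21.7%, near the 22.3% and 17.7% of all genes. The motor gene Myo1g rose with both compounds (0.57 and 0.74), Rac2 and Coro1a, regulators of actin, fell with D-2HG (-0.77 and -0.72), and Dock2, an activator of RAC, rose with L-2HG (0.95). Of 14 tested FOXO and KLF factors and their upstream kinase pathway, Klf9, Mapk7 and Mef2d rose and Klf6 fell with D-2HG, and Mef2a rose with L-2HG, with medians of 0.19 and 0.48. These are 28.6% and 7.14% of the list, beside the same 22.3% and 17.7%. Mef2a had 0.90 with L-2HG (edgeR adjusted p = 0.0450) and 0.77 with D-2HG (adjusted p = 0.0539), and Mef2d had 0.68 with D-2HG (adjusted p = 0.0279) and 0.61 with L-2HG (adjusted p = 0.0560). Mapk7, the kinase ERK5 that with MEF2 factors drives Klf2, rose by 0.85 with D-2HG (edgeR adjusted p = 0.0139), had 0.56 with L-2HG (adjusted p = 0.0874), and Klf6 fell by 1.12 (adjusted p = 0.00805), while Klf2 did not pass. Of 6 tested retinoid signalling genes none passed with D-2HG and the retinoic acid receptor gene Rara rose with L-2HG (0.90, edgeR adjusted p = 0.0237), with a D-2HG value of 0.50. That is 0% and 16.7% of the list, beside the same 22.3% and 17.7% of all tested genes. The medians of this list were 0.27 and 0.59. Rara was read at 59.6, 109 and 57.6 CPM in L-2HG replicates 1, 2 and 3, highest in the shallowest library. No gene of these lists passed in D-2HG against L-2HG by edgeR.

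Of the 16 calls with D-2HG in these lists, 13 were lost without control replicate 1, control replicate 3 or D-2HG replicate 3. Those of Ccr8, S1pr4 and Klf6 were kept with any 1 library left out, and all 16 were lost with the satellite share as a covariate. All 13 such calls with L-2HG were lost without control replicate 1, control replicate 3 or L-2HG replicate 1, and all 13 with that covariate.

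**Figure D5:**
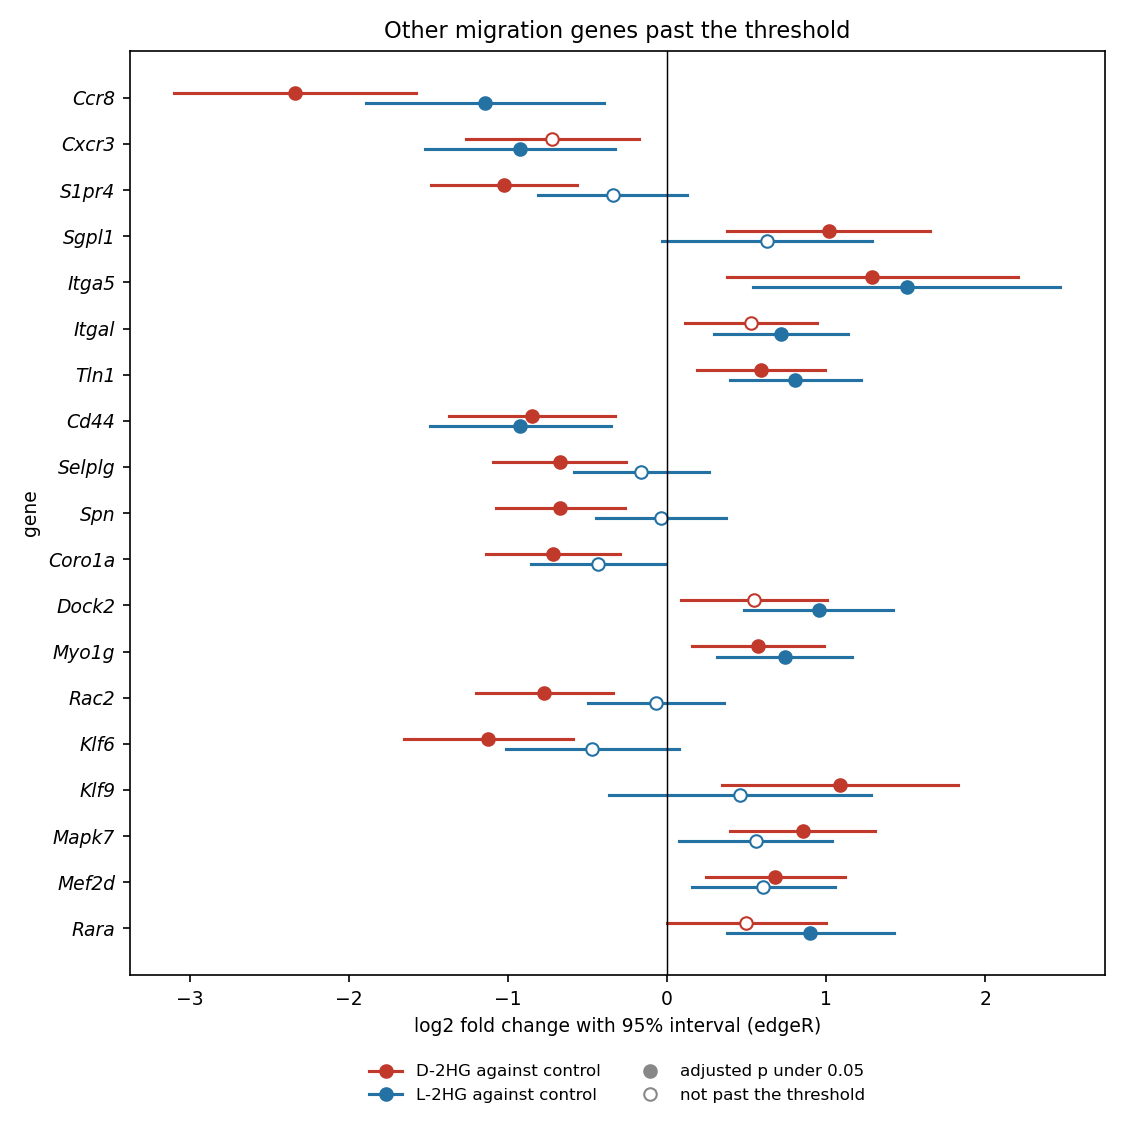
Log2 fold change (horizontal axis) with 95% intervals from the edgeR fit for genes of the 7 pathway lists (vertical axis), up to 4 per list, that passed the threshold with at least 1 compound. Filled points passed. Ccr8 with D-2HG lies furthest left at -2.34, and Itga5 with L-2HG furthest right at 1.51.

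Genes with the most similar pattern over the 9 libraries were looked up for the 2 members that passed, by the root mean square difference of centred log2 CPM among 7412 genes. Nearest to Ccr9 were Klhl7, an adaptor of a ubiquitin ligase (0.230 log2 units), Soat1, which esterifies cholesterol (0.238), and Myo1c, an unconventional myosin (0.257), where the median over all candidates was 0.785. Nearest to Itga4 were Rbm41, an RNA-binding protein gene (0.135), Klhl18 (0.219) and the chromatin remodeller gene Chd9 (0.227), beside a median of 0.811. The medians give scale only, since genes picked as nearest lie below them by construction. Their log2 fold changes with D-2HG and L-2HG were 1.19 and 1.40 for Klhl7 and 0.69 and 1.43 for Rbm41, beside 1.56 and 1.47 for Ccr9 and 0.39 and 1.32 for Itga4.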

How the data were processed

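Libraries were made from polyadenylated RNA by oligo(dT) priming, limited PCR and transposase fragmentation, according to the protocols in the labels. Counts per gene symbol were deposited by the authors as integers, made with STAR 2.7.3a and featureCounts on build mm10, per the submitters' processing notes. Counting settings and annotation release are not given in the sources used here. A second deposited table of signal values, counts over a size factor per library, served to look up gene identifiers and entered no test.

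The whole table was fitted in R 4.3.3 with edgeR 4.0.16 (filterByExpr with a minimum count of 10, TMM, robust quasi-likelihood F test, 1 mean per group, 6 residual degrees of freedom). P-values were adjusted by Benjamini-Hochberg over 10235 genes in each comparison. CPM are counts over TMM-scaled totals of the tested genes. Fold changes carry 95% intervals from the same fit, not adjusted for the number of genes. Alternatives used limma 3.58.1 and DESeq2 1.42.0. Chi-square over degrees of freedom was 5.83 to 42.4 between replicates of a group, above counting noise. The edgeR steps were tested on simulated data.

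Within-library ratios had 0.5 count added to each gene. Positions and exon lengths are from GENCODE M21. All members were named in every comparison, of each list up to 4 genes past the threshold against control with the smallest adjusted p, and for each called member the 3 nearest genes with a mean of at least 10 CPM. Mef2a, the marker genes, the satellite genes and overlapping neighbours were named outside this rule. The members, lists and motifs were chosen with earlier results of these data known. PCR duplicates without molecular identifiers are not independent, so counts overstate precision. Some genes of these pathways are not reported here.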

Additional observations from a re-analysis of the deposited data

How the results depend on the processing

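The counts of called genes and the log2 fold changes of the homing genes and of the called list genes were recomputed under 23 alternatives, of which the satellite share as a covariate, the fit with both control replicate 2 and L-2HG replicate 2 left out, and the minimum mean count of 1 were chosen after seeing the data. Klf2, Ccr8, Itga5, Pik3cg and Klf9 could not be fitted when thinned or at a mean count of at least 50. Ratios were recomputed with a pseudocount of 1 and without each library, and level orders, counts of groups without overlap, marker calls and nearest genes were not recomputed. The number of the 6 tested homing genes past the threshold with D-2HG was 1 in the fit as reported. It was 2 with DESeq2 size factors, the DESeq2 Wald test or only the groups compared. Of all tested genes these called 2414 of 10235, 2205 of 10282 and 2518 of 10284, in that order. Limma-voom called 5 of the homing genes and 5615 of 10235 of all genes. With both libraries left out it was 3, beside 4850 of 10829, and at a mean count of at least 1 it was 3, beside 2529 of 23084. With L-2HG the number of homing genes was 2 as reported. It was 3 with no count filter, the DESeq2 Wald test, limma-voom, both libraries left out or a mean count of at least 1. Of all tested genes these called, in that order, 1962 of 43755, 2106 of 10282, 5169 of 10235, 3787 of 10829 and 3299 of 23084. It was 1 with only the groups compared (427 of 9520 of all genes) or thinned counts (700 of 6881). With the satellite covariate it was 0 (8 of 10235). Between the forms limma-voom called 1 of the homing genes, beside 158 of 10235 of all genes. Leaving out 1 library gave 1 to 3 homing genes with D-2HG, 1 to 3 with L-2HG and 0 between the forms.

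The count of all genes past the threshold with D-2HG, 2278 as reported, was 1341 with no count filter, 5615 with limma-voom, 837 with thinned counts, 96 with the satellite covariate, 4850 with both libraries left out and 384 to 4257 without 1 library. With L-2HG, 1812 as reported, it was 1195 at a mean count of at least 50, 5169 with limma-voom, 427 with only the groups compared, 700.0 with thinned counts, 679 with DNA background subtracted, 8 with the satellite covariate, 3787 with both libraries left out, 3299 at a mean count of at least 1 and 65 to 4108 without 1 library. Between the forms, 31 as reported, it was 49 with the DESeq2 Wald test, 158 with limma-voom, 17 with thinned counts, 76 with the satellite covariate, 131 with both libraries left out and 10 to 60 without 1 library. The causes were not tested.

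Among log2 fold changes none that passed the threshold changed sign. The D-2HG value of S1pr1 was 0.19 and that of Itga4 -0.20 with the satellite covariate, and S1pr1 ran from -0.45 to 0.025 without 1 library. The L-2HG value of Itgb7 was -0.018 with DESeq2 size factors, -0.16 with no filter, -0.58 with limma-voom, -0.88 with the satellite covariate, -0.53 with both libraries left out, -0.21 at a mean count of at least 1 and -0.58 to 0.47 without 1 library, and that of S1pr1 was -0.020 at a mean count of at least 1. D-2HG against L-2HG for Ccr7 was 0.045 with no filter, 0.022 with limma-voom and -0.24 to 0.23 without 1 library, and for Ccr9 it was -0.030 with thinned counts and -0.039 to 0.26 without 1 library.

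Of all called genes 52.9% were higher with D-2HG and 53.1% with L-2HG, against 70.0% and 77.7% with library totals in place of TMM and 43.8% and 36.2% with DESeq2 size factors, which moved the median of all genes with L-2HG from 0.05 to -0.07. Whether replicate numbers pair the libraries is not labelled, and 3 libraries a group cannot settle it. Deviations correlated over 0.1 in 2 of 9 same-numbered pairs (range -0.17 to 0.28) and in 6 of 18 other pairs. Not every library correlated best with its own number, and the main fit used no pairing. With the replicate block Ccr9 with D-2HG was 1.56 (edgeR adjusted p = 0.000171), and 2314, 2284 and 35 genes passed in the 3 comparisons.

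The 562627 counts of L-2HG replicate 2 limit Klf2, Itgb7 and Cxcr4, read there from 2, 34 and 2 counts. Satellite share and group moved together, so a fit with that share cannot separate it from a compound. A p that misses the threshold does not show that values were equal.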
